A study of Mus musculus with 12 samples.

Results

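The Cyp2a genes encode cytochrome P450 enzymes of subfamily 2A, and they were described here by the log2 signals of Cyp2a4, Cyp2a5, Cyp2a12 and Cyp2a22 in mouse liver. A gene entered if a probe set carried its symbol alone in the array annotation, with the probe set of highest mean kept. All 4 genes were found, each with 1 probe set, among 22180 genes with a single symbol. The mean over 12 arrays therefore decided nothing in the choice of probe sets. The family itself was chosen by earlier results of these same data, namely the lower signals of Cyp2a4 and Cyp2a5 in knockouts on high-fat diet. The p values below place the genes within a fit of all genes and give no independent support.

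Livers came from 12 male C57BL/6 mice, 1 mouse per array. The 4 groups of 3 mice were AHNAK KO on high-fat diet (KO HFD), wildtype on high-fat diet (WT HFD), AHNAK KO on regular chow (KO chow) and wildtype on regular chow (WT chow). The high-fat diet (HFD) held 60% fat and was given for 8 weeks to weight-matched mice, and the period label of the chow groups is also 8 weeks. The KO mice are labelled as lacking Ahnak, the gene of a very large scaffold protein. The sources used here give neither the part of the gene that was deleted, nor the tissues concerned, nor the age of the mice.

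P450 enzymes are heme proteins of the endoplasmic reticulum that insert oxygen into drugs, steroids, bile acids and other lipids, with electrons from P450 reductase and cytochrome b5. Mouse Cyp2a5 hydroxylates coumarin and oxidises nicotine and bilirubin, and it is the counterpart of human CYP2A6. Cyp2a4 hydroxylates testosterone and is more abundant in female than in male mouse liver, although its sequence is nearly that of Cyp2a5. Cyp2a12 hydroxylates testosterone at another position and acts on secondary bile acids. In mouse liver, Cyp2a5 is known to respond to the receptors CAR and PXR, to NRF2, to HNF4 alpha with its coactivator PGC-1 alpha, and to the clock-controlled factors DBP, TEF and HLF.

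All 4 genes lie on chromosome 7 in a cluster of P450 genes of subfamilies 2A, 2B, 2F, 2G, 2S and 2T. Sequences just before their annotated starts are shown because those of Cyp2a4 and Cyp2a5, whose signals ran in step, are nearly identical. Those of Cyp2a12 and Cyp2a22 are less alike. Both of these genes were highest in WT HFD, but by unlike amounts, with spreads (SD) over 12 arrays of 0.10 and 0.66. Whether promoter sequence bears on the signals was not tested. The lines give the 120 bases before each start, 5′ to 3′ on the gene's strand, from RefSeq (GRCm38.p6). Capitals mark a TATA box (TATAAA), an HNF4-type motif (CAAAGNCC) and a C/EBP motif (TTGCNNAA), on either strand.
Cyp2a4, chr7:26307072-26307191, plus strand: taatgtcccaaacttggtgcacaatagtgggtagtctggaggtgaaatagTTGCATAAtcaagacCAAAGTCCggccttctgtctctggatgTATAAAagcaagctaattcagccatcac
Cyp2a5, chr7:26835219-26835338, plus strand: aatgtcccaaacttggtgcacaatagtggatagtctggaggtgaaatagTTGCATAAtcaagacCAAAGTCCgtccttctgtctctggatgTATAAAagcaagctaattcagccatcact
Cyp2a12, chr7:27028970-27029089, plus strand: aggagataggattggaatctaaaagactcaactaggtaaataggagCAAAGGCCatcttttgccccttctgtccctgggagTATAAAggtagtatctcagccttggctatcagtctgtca
Cyp2a22, chr7:26939387-26939506, minus strand: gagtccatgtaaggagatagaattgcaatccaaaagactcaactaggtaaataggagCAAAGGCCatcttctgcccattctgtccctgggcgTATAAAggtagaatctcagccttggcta

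Over the 250 bases before the start, Cyp2a4 and Cyp2a5 were identical in 98.4% of aligned positions, with 4 of 249 different. Cyp2a12 and Cyp2a22 were identical in 82.8%, and the other 4 pairings in 48.7% to 52.3%. The TATA box and the HNF4-type motif occurred once in each of the 4 genes, against 12.4% and 5.15% of 32851 promoters of the same length. The C/EBP motif occurred once in Cyp2a4 and once in Cyp2a5 and had no match in Cyp2a12 or Cyp2a22, against 9.56% of all promoters. Those same 8 letters also fit the D-box motif of DBP, TEF and HLF (TTANGNAA, in 10.3% of promoters), so these 2 matches are 1 stretch. No match was found in the 4 windows for a STAT motif (TTCNNNGAA, 7.02%) or an NRF2 element (TGACNNNGC, 10.2%). These motifs were picked with the sequences in view, and a match shows letters, not binding. The absence of a match covers these 250 bases only, as sequence further upstream was not searched.

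Hepatocyte markers were high on all arrays. Signals ran from 1.40 to 14.36 over 41345 probe sets, with array medians from 5.58 to 5.70. Markers such as Alb, Ttr and Apoa1 averaged 13.08 to 13.19 on every array. Between KO and WT on HFD none of 7 passed, against 10.5% of all genes in either direction, and with so few genes that count says little. WT HFD livers stood apart on the first principal component (32.2% of the variance), at 30.02 to 32.34, against -18.53 to -3.95 for the other 9, so each comparison with WT HFD rests on that set of 3. Ahnak, the knocked-out gene, read 6.46, 6.52 and 6.62 in KO HFD, 7.26, 7.06 and 6.74 in WT HFD, 6.38, 6.74 and 6.66 in KO chow and 6.50, 6.83 and 6.58 in WT chow. Its groups overlapped on chow, and whether its probe set lies in the deleted part is not given, so it was not used to check the labels. In bulk liver, fewer cells of a type and less RNA per cell cannot be told apart.

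Cyp2a4, the testosterone hydroxylase gene, was lowest in KO livers on HFD. Its log2 signals were 7.38, 7.06 and 7.43 in KO HFD, 10.38, 10.48 and 10.69 in WT HFD, 9.66, 9.71 and 10.19 in KO chow and 10.15, 10.05 and 9.90 in WT chow. All KO HFD livers lay below every other liver, all WT HFD livers lay above every other liver, and the chow groups overlapped. Group means in rising order were 7.29 ± 0.20 in KO HFD, 9.85 ± 0.29 in KO chow, 10.03 ± 0.13 in WT chow and 10.52 ± 0.16 in WT HFD (SD, n = 3 each). KO chow and WT chow, neighbours in that order, did not differ beyond their spread.

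Cyp2a5, the coumarin hydroxylase gene, followed the same order. It read 5.85, 5.65 and 5.88 in KO HFD, 9.03, 8.86 and 9.02 in WT HFD, 8.15, 8.26 and 8.36 in KO chow and 8.27, 8.64 and 8.44 in WT chow. Again the KO HFD livers were below and the WT HFD livers above all others, with the chow groups overlapping. The means were 5.80 ± 0.12 in KO HFD, 8.97 ± 0.09 in WT HFD, 8.26 ± 0.10 in KO chow and 8.45 ± 0.19 in WT chow. No detection calls were used here, so whether the low signals in KO HFD were above background was not tested. They lay near the array medians (5.58 to 5.70), so differences from KO HFD may not give the size of the difference in RNA.

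Cyp2a12, the bile acid and testosterone hydroxylase gene, had nearly level signals over the livers. It read 13.25, 13.14 and 13.22 in KO HFD, 13.40, 13.41 and 13.37 in WT HFD, 13.12, 13.15 and 13.10 in KO chow and 13.19, 13.27 and 13.17 in WT chow. Only WT HFD stood clear of every other group. These signals lay close to the top of the range (14.36).

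Cyp2a22 was set apart by WT livers on HFD rather than by KO livers. It read 6.92, 6.79 and 7.13 in KO HFD, 8.49, 8.51 and 8.63 in WT HFD, 6.81, 7.31 and 7.18 in KO chow and 7.08, 7.24 and 7.05 in WT chow. Every WT HFD liver lay above all 9 others, and the remaining 3 groups overlapped. Their means were 6.95 ± 0.17 in KO HFD, 7.10 ± 0.26 in KO chow and 7.12 ± 0.10 in WT chow, against 8.54 ± 0.07 in WT HFD.

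**Figure D1:**
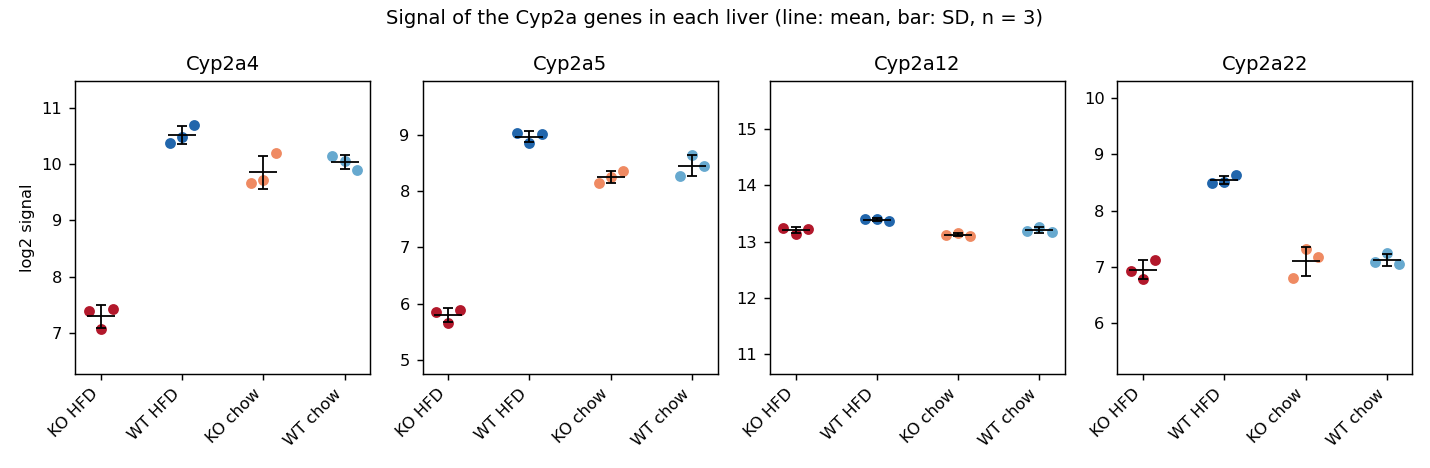
Log2 signal of each Cyp2a gene (vertical axis, the same height in log2 units in each panel) in every liver, by group, with the mean and SD of 3 mice. Cyp2a4 and Cyp2a5 are low in KO HFD alone, Cyp2a22 is high in WT HFD alone, and Cyp2a12 lies between 13.10 and 13.41 throughout.

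The first comparison asks how KO livers differ from WT livers on HFD. Of the 4 genes 3 were lower in KO and Cyp2a12 did not pass, against 6.62% of all genes called lower, 3.89% higher and 10.5% in either direction at an adjusted p under 0.05 (limma, Benjamini-Hochberg over 22180 genes). The all-gene calls were 862 higher and 1469 lower, or 545 and 1937 after centring each array on its median. Cyp2a4 fell by 3.22 ± 0.15 (log2 fold change ± SE, adjusted p = 4.34e-07), a 9.34-fold difference, and Cyp2a5 fell by 3.17 ± 0.11 (adjusted p = 3.60e-08), a 9.02-fold difference. By p value Cyp2a5 ranked 1 and Cyp2a4 ranked 3 among all genes. The size for Cyp2a5 is a difference of signal, as its KO HFD signals were not tested against background. Cyp2a22 fell by 1.60 ± 0.13 (adjusted p = 2.34e-05), a 3.02-fold difference. Cyp2a12 stood at -0.19 ± 0.07 (adjusted p = 0.12, 95% interval -0.35 to -0.04). All 4 genes had every KO liver below every WT liver, as did 15.6% of all genes, while 13.0% had every KO liver above. Cyp2a12 passed under 3 alternatives, namely trend and robust settings (adjusted p = 0.0105), centring on the array median (0.0477) and genes above the median signal (0.0369).

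On chow, the 4 genes were not told apart between genotypes, and 0 of 4 passed, against 0.00902% of all genes. At an unadjusted p under 0.05 the count was also 0 of 4, against 7.02% of genes. The KO minus WT differences were -0.18 ± 0.15 for Cyp2a4, -0.19 ± 0.11 for Cyp2a5, -0.08 ± 0.07 for Cyp2a12 and -0.02 ± 0.13 for Cyp2a22, with adjusted p from 0.769 to 0.983. Their 95% intervals reached down to -0.51, -0.43, -0.24 and -0.31, and a difference of such a size is not excluded. Cyp2a12 alone had its KO livers all below its WT livers, as had 7.29% of all genes, while 5.95% had them all above.

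The diet comparison in KO livers showed the fall in Cyp2a4 and Cyp2a5 again, now against KO mice on chow. This comparison shares the KO HFD livers with the comparison of genotypes on HFD. Cyp2a4 fell by 2.56 ± 0.15 (adjusted p = 8.18e-06) and Cyp2a5 by 2.46 ± 0.11 (adjusted p = 7.30e-07), so 2 of 4 were lower, against 0.158% of all genes lower, 0.0857% higher and 0.243% in either direction. In both genes the HFD livers lay all below the chow livers, as in 6.79% of all genes, while 6.99% had them all above. Of 22180 genes they ranked 2 and 1 by p value. Cyp2a12 (0.08 ± 0.07, adjusted p = 0.832) and Cyp2a22 (-0.15 ± 0.13, adjusted p = 0.813) did not pass, with 95% intervals of -0.08 to 0.23 and -0.44 to 0.13.

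In WT livers, 2 of the genes were higher on HFD. Cyp2a22 rose by 1.42 ± 0.13 (adjusted p = 8.40e-05), a 2.67-fold difference, and Cyp2a5 rose by 0.52 ± 0.11 (adjusted p = 0.0149), so 2 of 4 were higher, against 4.02% of all genes higher, 2.94% lower and 6.96% in either direction. The all-gene calls were 891 higher and 652 lower, or 1089 and 457 after median centring. Cyp2a4 stood at 0.49 ± 0.15 (adjusted p = 0.0784) and Cyp2a12 at 0.18 ± 0.07 (adjusted p = 0.164). In all 4 genes every HFD liver lay above every chow liver, as in 14.2% of all genes, while 12.2% had them all below. The call of Cyp2a5 was lost without WT HFD 1 (adjusted p = 0.0566), WT HFD 3 (0.0575), WT chow 1 (0.0549) or WT chow 3 (0.0522). Cyp2a4 passed with trend and robust settings (0.0397), among genes above the median signal (0.0362) and without KO chow 3 (0.0382), and Cyp2a12 with trend and robust settings (0.0181).

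The interaction asks whether the diet response differed between genotypes. It was negative where the HFD minus chow change was lower in KO than in WT livers. That covers a smaller rise, an opposite change or a larger fall in KO. It passed for 3 of 4 genes, against 2.10% of all genes in that direction, 1.43% in the other and 3.53% in either. The all-gene calls were 318 positive and 465 negative, or 221 and 623 after median centring. The values were -3.04 ± 0.21 for Cyp2a4 (adjusted p = 2.26e-05), -2.98 ± 0.16 for Cyp2a5 (4.56e-06) and -1.57 ± 0.18 for Cyp2a22 (0.000733). Cyp2a12 stood at -0.11 ± 0.10 (adjusted p = 0.647, 95% interval -0.33 to 0.11). For Cyp2a4 and Cyp2a5 the diet change in KO livers (-2.56 and -2.46) made up more of this value than that in WT livers (0.49 and 0.52). For Cyp2a22 it was the reverse, at -0.15 in KO livers and 1.42 in WT livers.

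**Figure D2:**
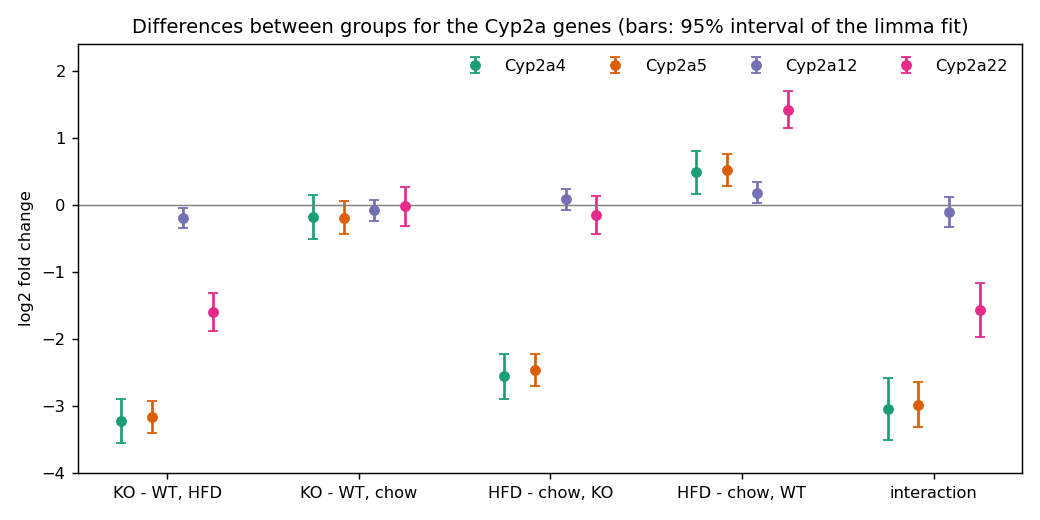
Log2 fold changes (vertical axis) of the 4 Cyp2a genes in the comparisons of genotype, of diet and their interaction, with 95% intervals of the limma fit. Cyp2a4 and Cyp2a5 lie at -3.22 and -3.17 for KO minus WT on HFD, and the 4 intervals on chow include 0.

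Cyp2a4 and Cyp2a5 moved in step. The within-array difference of their log2 signals was 1.41 to 1.55 in KO HFD, 1.35 to 1.67 in WT HFD, 1.44 to 1.83 in KO chow and 1.40 to 1.88 in WT chow, so it overlapped between all groups while each gene spanned over 3 log2 units. Probes for genes so alike in sequence can bind both transcripts. Whether their parallel signals come from 2 genes or from 1 was not tested, as signals of single probes were not analysed here. Cyp2a4 minus Cyp2a22, by contrast, was 0.27 to 0.46 in KO HFD, against 2.39 to 3.01 in KO chow, an unequal response to diet in KO livers. In WT livers that difference was 1.89 to 2.06 on HFD, against 2.81 to 3.07 on chow. The 24 exact two-sided permutation tests of such differences can give no p below 0.1 with 3 livers a group, and adjusted p was 0.171 at the lowest.

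**Figure D3:**
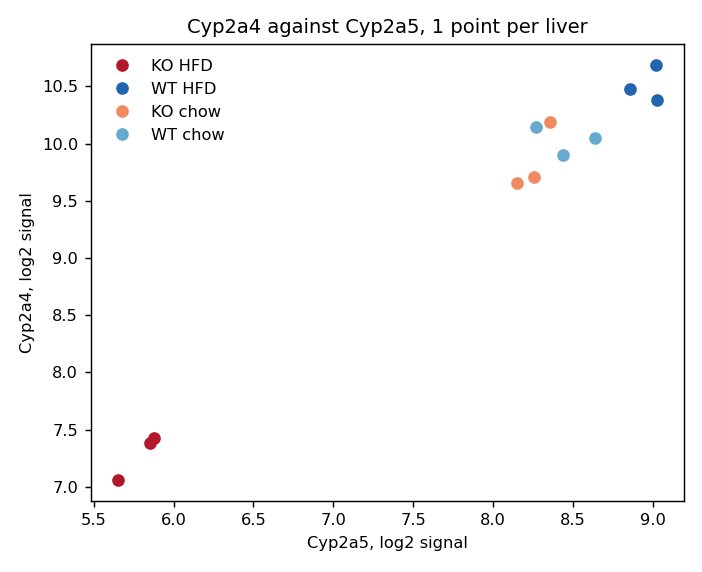
Log2 signal of Cyp2a4 (vertical axis) against Cyp2a5 (horizontal axis), 1 point per liver, coloured by group. The KO HFD livers form the low corner at 5.65 to 5.88 for Cyp2a5, and the WT HFD livers the high corner at 8.86 to 9.03.

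The genes of most like pattern were sought by the root mean square difference between profiles over 12 arrays, each centred on its own mean. As they were picked from these same arrays, their fold changes and p values largely follow from the choice and give no support. For Cyp2a4 the nearest gene was Cyp2a5 at 0.16 log2 units, and for Cyp2a5 it was Cyp2a4, against their own spreads of 1.26 and 1.23. Next came Gstm3, a glutathione transferase gene (0.43 from Cyp2a4 and 0.50 from Cyp2a5), then Abcd2, a peroxisomal fatty acid transporter gene (0.56 and 0.60), Scd1, the stearoyl-CoA desaturase gene (0.62 and 0.59), and Inmt, a methyltransferase gene (0.67 and 0.62). Gstm3 read 7.69, 6.65 and 6.87 in KO HFD, 9.78, 10.05 and 10.71 in WT HFD, 8.27, 8.76 and 9.48 in KO chow and 9.93, 9.13 and 9.41 in WT chow. It was lower in KO than in WT on HFD by -3.11 ± 0.35 (adjusted p = 0.000216) with more spread between mice than the Cyp2a genes. Abcd2 stood at -2.15 ± 0.34 (0.00186) and Inmt at -1.69 ± 0.16 (6.63e-05) in the same comparison.

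Cyp2a22 had different nearest genes. They were Tcim (0.16), Chil1, a chitinase-like protein gene (0.17), Pfkfb3, a regulator of glycolysis (0.21), Akr1c20, an aldo-keto reductase gene (0.22), and N4bp2l1 (0.22), against its own spread of 0.66. Each was higher on HFD than on chow in WT livers, from 1.02 ± 0.11 for N4bp2l1 (adjusted p = 0.000185) to 1.54 ± 0.10 for Tcim (6.75e-06), against 4.02% of all genes. None of these 5 passed between diets in KO livers, where they stood at -0.46 to 0.10, against 0.243% of all genes in either direction. Both traits are those of Cyp2a22, by which these genes were picked. For Cyp2a12 the nearest were Ufm1 (0.04), Canx, Dnajc3, Cyp2j5 and Asph (0.05 each), against a spread of 0.10. Canx and Dnajc3 encode proteins of folding in the endoplasmic reticulum and Cyp2j5 is another P450 gene. All of these distances are descriptions over 12 arrays that share the group structure.

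Lower signals in KO on HFD also occurred among neighbouring P450 genes of the chromosome 7 cluster. Of 9 measured neighbours 0 were higher and 4 lower in KO than in WT on HFD, against 3.89% higher and 6.62% lower among all genes, with a median of -0.33, against 0.00 over all genes. The Cyp2b genes encode P450 enzymes of drug and steroid metabolism. Cyp2b9 stood at -8.44 ± 0.94, Cyp2b13 at -4.89 ± 0.31 and Cyp2b10 at -3.43 ± 0.47 (adjusted p = 0.000196, 2.46e-06 and 0.000769). In KO HFD their signals were low, at 6.18, 4.39 and 3.98 for Cyp2b9, 4.46, 4.68 and 3.80 for Cyp2b13 and 5.43, 4.55 and 4.83 for Cyp2b10. Whether these were above background was not tested, so the values are differences of signal and may not give the size of the difference in RNA. Cyp2g1, a P450 gene of the olfactory mucosa and next to Cyp2a5 among the P450 genes placed, stood at -0.64 ± 0.14 (0.0121). The other 5, Cyp2b19, Cyp2b23, Cyp2f2, Cyp2s1 and Cyp2t4, lay between -0.33 and 0.00 and did not pass.

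Whether position in the cluster bears on the values was not tested. Among the 13 P450 genes placed along the chromosome, Cyp2b10, Cyp2b13, Cyp2b9 and Cyp2a4 are consecutive, and all were called lower in KO on HFD. Cyp2g1, Cyp2a5 and Cyp2a22 are also consecutive and were called lower, with the uncalled Cyp2b23 and Cyp2b19 between these runs. Other genes that may lie between them were not placed. The sizes differed within a run, and Cyp2g1 read 5.14, 5.11 and 4.88 in KO HFD, against 5.53, 5.86 and 5.66 in WT HFD. Cyp2f2, beyond Cyp2a12, differed by 0.00 ± 0.08. Between diets in WT, 3 of 9 neighbours were higher and 0 lower, against 4.02% and 2.94% of all genes, and 6 did not pass. The higher ones were Cyp2b9 (5.52 ± 0.94), Cyp2b13 (4.60 ± 0.31) and Cyp2b10 (2.58 ± 0.47), while Cyp2g1 stood at 0.09 ± 0.14. Between diets in KO, Cyp2b9 was lower by -5.64 ± 0.94 (adjusted p = 0.0316), but its KO chow livers ranged widely, at 7.87, 11.31 and 12.29, against 9.66 to 10.19 for Cyp2a4. Cyp2b10 (-1.09 ± 0.47) and Cyp2b13 (-0.59 ± 0.31) did not pass there, with adjusted p of 0.548 and 0.646. Whether the diet response in KO livers differed between the Cyp2a and Cyp2b genes was not tested.

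**Figure D4:**
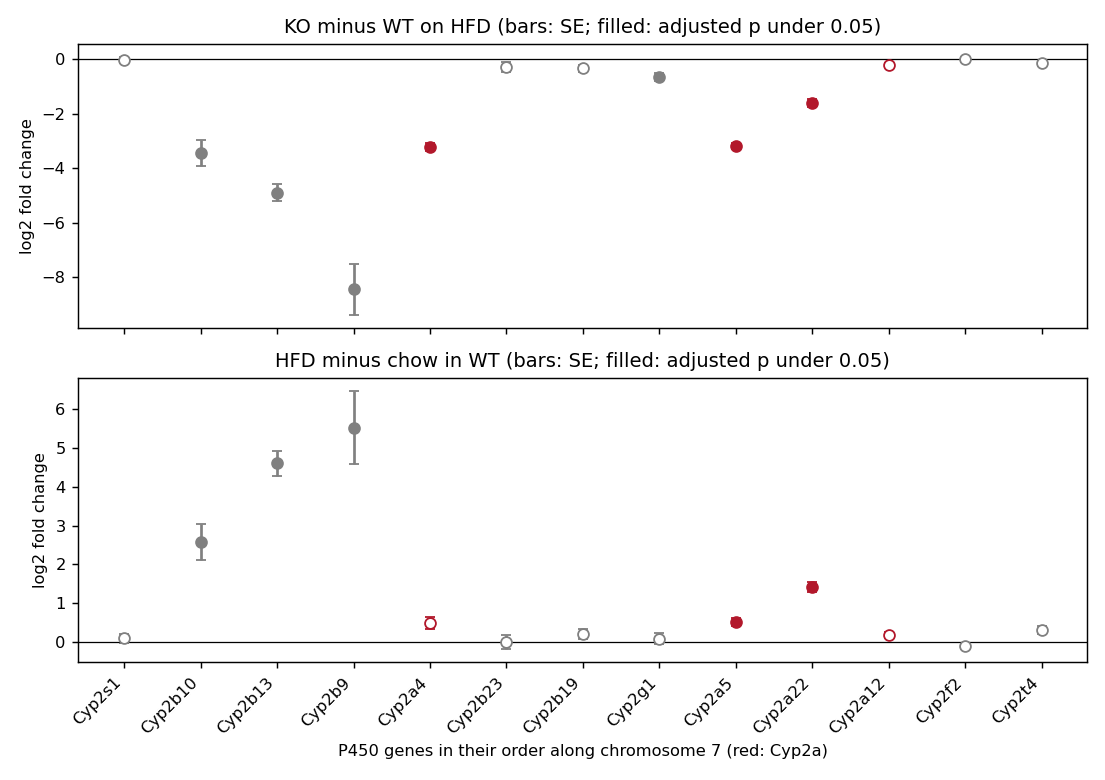
Log2 fold change with SE (vertical axes) of 13 P450 genes in their order along chromosome 7, for KO minus WT on HFD and for HFD minus chow in WT, with the Cyp2a genes in red and filled points for an adjusted p under 0.05. Lower values in KO run from -8.44 for Cyp2b9 to -0.64 for Cyp2g1 among called genes, and uncalled genes lie among them.

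Among regulators known for Cyp2a genes, 3 clock-controlled factors were lower and 1 coactivator was higher in KO than in WT on HFD. Of 21 measured (of 22 listed) 17 did not pass, against 6.62% of all genes lower and 3.89% higher, with a median of -0.13. The 3 lower genes were the clock-controlled factors Dbp (-1.19 ± 0.26, adjusted p = 0.0125), Tef (-0.70 ± 0.15, 0.0118) and Hlf (-0.59 ± 0.13, 0.0146). Dbp read 9.18, 9.31 and 8.47 in KO HFD, 9.95, 10.33 and 10.23 in WT HFD, 8.40, 8.35 and 8.28 in KO chow and 8.27, 9.26 and 9.28 in WT chow. Dbp was thus highest in WT HFD, as were Cyp2a4 and Cyp2a5. Between diets in KO it stood at 0.64 ± 0.26 (adjusted p = 0.525), against -2.56 ± 0.15 for Cyp2a4 and -2.46 ± 0.11 for Cyp2a5. The part of the clock genes, and of the hour of collection, in the Cyp2a signals was not tested.

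Ppargc1a, which encodes PGC-1 alpha, rose by 1.19 ± 0.18 in KO against WT on HFD (adjusted p = 0.0015), opposite to Cyp2a5. It read 9.72, 9.70 and 9.81 in KO HFD, 8.60, 8.59 and 8.47 in WT HFD, 10.13, 9.37 and 9.24 in KO chow and 9.15, 9.40 and 9.39 in WT chow, so WT HFD was the low group. The receptor genes Nr1i3, for CAR (0.09 ± 0.22, adjusted p = 0.858), and Nr1i2, for PXR (-0.13 ± 0.12, 0.585), did not pass. Hnf4a (0.01 ± 0.08, 0.98) and Nfe2l2, the NRF2 gene (-0.17 ± 0.09, 0.31), did not pass either. On chow, where 0.00902% of all genes were higher in KO and 0 lower, 0 regulators were lower and 1 of 21 was higher. This was Cux2, a repressor and activator of sex-biased liver genes, at 0.79 ± 0.09 (adjusted p = 0.0254), and its livers read 7.40 to 7.62 in KO chow, against 6.69 to 6.78 in WT chow. The Cux2 call was lost with the replicate block and in the fit of the compared arrays alone, where 0 genes passed in either.

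**Figure D5:**
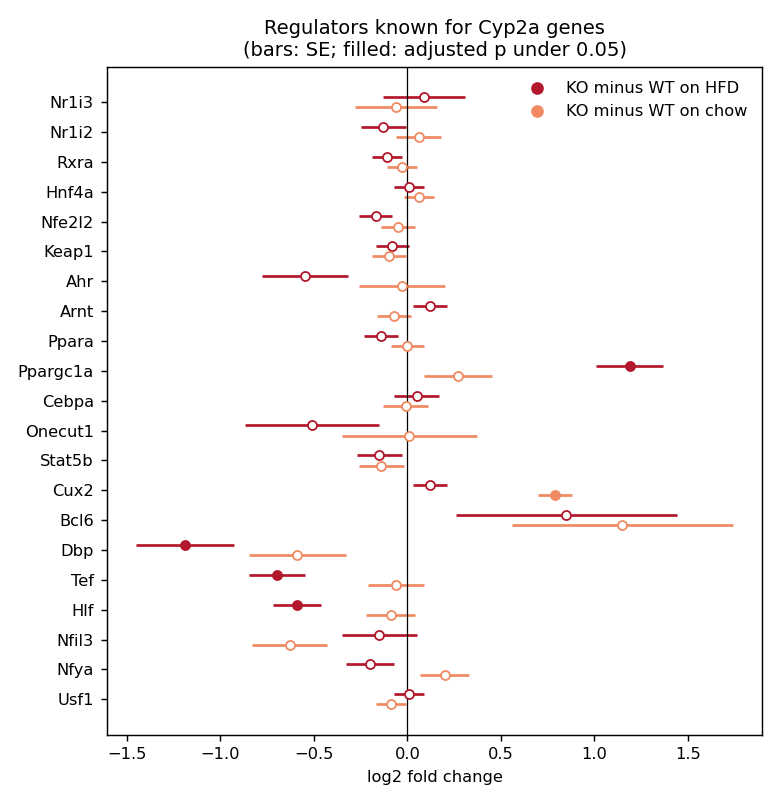
Log2 fold change with SE (horizontal axis) of 21 regulators known for Cyp2a genes, KO minus WT on HFD in dark red and on chow in orange, filled for an adjusted p under 0.05. On HFD Ppargc1a lies at 1.19 and Dbp, Tef and Hlf at -1.19, -0.70 and -0.59, and most others lie near 0.

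Genes that serve P450 enzymes were described as 2 lists. Among 5 measured electron donors and their partners (of 6 listed) 0 were higher and 4 lower in KO on HFD, against 3.89% and 6.62% of all genes, with a median of -0.34. They were Cyb5b, a cytochrome b5 (-0.49 ± 0.12, adjusted p = 0.0231), Cyb5r3, its reductase (-0.44 ± 0.10, 0.0116), and the heme-binding Pgrmc1 (-0.28 ± 0.07, 0.0323) and Pgrmc2 (-0.34 ± 0.09, 0.0369). Cyb5a, the microsomal cytochrome b5, stood at -0.08 ± 0.07. Por, the P450 reductase gene, was the listed gene not measured, so the counts leave out that electron donor. Of 13 measured genes of heme and bilirubin handling (of 15 listed) 0 were higher, 2 lower and 11 did not pass, against 3.89% higher and 6.62% lower among all genes, with a median of -0.22. Hmox1, which opens the heme ring on the way to bilirubin, stood at -0.68 ± 0.19 (0.0382) and Abcc3, an exporter of conjugates, at -0.96 ± 0.15 (0.00146).

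Some targets of the regulators outside the cluster were also lower in KO on HFD. Of 12 CAR and PXR targets 0 were higher and 4 lower, against 3.89% and 6.62% of all genes, with a median of -0.22. They were Gstm3, Cyp2c29 (-0.97 ± 0.15, adjusted p = 0.00134), Cyp3a11 (-0.93 ± 0.15, 0.00183) and Papss2 (-0.40 ± 0.11, 0.0456). Cyp3a11 was lower on HFD in both genotypes (-2.05 ± 0.15 in KO and -1.10 ± 0.15 in WT), and Ces2a likewise (-1.16 ± 0.13 in each), unlike Cyp2a5, which was higher on HFD in WT. Of 12 NRF2 targets 0 were higher and 7 lower in KO on HFD, against the same shares of all genes, with a median of -0.62. Lower were, among others, Gsta3 (-1.38 ± 0.13), Nqo1 (-1.02 ± 0.14) and Gstm1 (-0.83 ± 0.11). Of the 5 that did not pass, Osgin1 (0.60 ± 0.22), Srxn1 (0.29 ± 0.10) and Txnrd1 (0.12 ± 0.13) stood above 0. Gclm (-0.12 ± 0.07) and Gpx2 (-0.15 ± 0.25) stood below.

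Lists of hepatocyte zones and of sex-biased genes were set beside the family, since Cyp2a5 is a gene of the hepatocytes around the central vein and Cyp2a4 is female-biased. In each list the counts stand against 3.89% of all genes higher and 6.62% lower in KO on HFD. Of 12 pericentral genes 2 were higher and 2 lower, with a median of 0.05. Higher were the transcription factor gene Tbx3 (1.34 ± 0.12, adjusted p = 4.00e-05) and the Wnt target Axin2 (0.57 ± 0.12, 0.0117), and lower were the ammonium transporter gene Rhbg (-1.20 ± 0.17, 0.0011) and Lect2 (-0.67 ± 0.16, 0.0176). Among 9 measured periportal genes (of 12 listed) 2 were higher and 1 lower, with a median of -0.16. Of 11 measured female-biased genes (of 15 listed, Cyp2a4 left out) 0 were higher and 4 lower, with a median of -0.03, and of 14 male-biased genes 10 were higher and 1 lower, with a median of 1.08.

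Of 6 stellate cell markers 3 were lower in KO than in WT on HFD, against 6.62% of all genes. These were Lrat (-0.93 ± 0.10), Col1a1 (-1.10 ± 0.13) and Col3a1 (-1.24 ± 0.14), while Dcn (-0.06 ± 0.09), Des (-0.08 ± 0.15) and Pdgfrb (-0.14 ± 0.12) did not pass. The 6 averaged 8.30 to 8.49 in KO HFD, 8.86 to 9.14 in WT HFD, 8.42 to 8.53 in KO chow and 8.22 to 8.35 in WT chow. Endothelial markers averaged 9.69 to 9.84 in KO HFD and 9.99 to 10.02 in WT HFD, with 2 of 6 lower, against 6.62% of all genes. They did not move together. Group means in KO HFD and WT HFD were 9.25 and 10.60 for Lyve1, 10.14 and 10.50 for Cdh5 and 8.14 and 8.32 for Pecam1. Clec4g (12.10 and 12.14) and Stab2 (9.29 and 9.21) were nearly level. Kdr went the other way, at 9.40 to 9.70 in KO HFD, against 9.14 to 9.37 in WT HFD. The part of these cells in the Cyp2a signals was not tested. Macrophage, bile duct, lymphocyte, adipocyte, kidney or gut and olfactory markers had 0 members called between KO and WT on HFD. Among all genes 10.5% were called in either direction, and in lists this short a count of 0 says little. Olfactory markers averaged 4.12 to 4.43 over all arrays.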

How the data were processed

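Liver RNA of 12 mice was measured on single-channel arrays with biotin label, per the labels. The authors deposited log2 signals. The submitters' processing notes name oligo, with neither version nor settings, and no scanner files were used here. Values were used as deposited, with 0 missing. Array annotation gave 23521 probe sets with 1 symbol (23328 matched by gene number to RefSeq names), 1814 with several and 16010 with none, which left 22180 genes. One limma model (version 3.58.1, R 4.3.3, lmFit and eBayes) held all 4 groups, with p values adjusted by Benjamini-Hochberg over all genes, called under 0.05. The code was tested on simulated data. The members, gene lists, rule for named genes (members, list members as examples, and the 5 genes of most like profile) and alternatives were chosen with earlier results of these data known. Same-numbered livers did not deviate together (correlations -0.06 to 0.08 over 12 pairs), so numbers were not taken as pairs. Alternatives were array weights, a replicate block, quantile normalization, eBayes with trend and robust settings, median centring, fits to brighter genes, to probe set averages, to each probe set or to the compared arrays alone, a 2-fold minimum and leaving out each array. Promoters were aligned with Biopython 1.88. The number of arrays limits precision.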

Additional observations from a re-analysis of the deposited data

Results flagged for a closer look

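These results were picked out because the diet response differed between genotypes by the interaction term of the limma fit, given as log2 fold change ± SE with the p adjusted over all genes. Within the family they were Cyp2a4 (-3.04 ± 0.21, adjusted p = 2.26e-05), Cyp2a5 (-2.98 ± 0.16, 4.56e-06) and Cyp2a22 (-1.57 ± 0.18, 0.000733). In the cluster they were Cyp2b9 (-11.16 ± 1.32, 0.000837), Cyp2b13 (-5.18 ± 0.43, 8.16e-05), Cyp2b10 (-3.67 ± 0.66, 0.0112) and Cyp2g1 (-0.83 ± 0.20, 0.0412). Signals of Cyp2a5, Cyp2b9 and Cyp2b10 in KO HFD, and of Cyp2b13 in every group but WT HFD, were low and may lie at background. The sizes for these genes are therefore differences of signal only. Among genes of like pattern the values were -2.46 ± 0.50 for Gstm3 (0.019), -2.09 ± 0.48 for Abcd2 (0.0348) and -1.53 ± 0.22 for Inmt (0.0033). Near Cyp2a22 they were -1.78 ± 0.14 for Tcim (5.36e-05), -1.71 ± 0.19 for Pfkfb3 (0.000465), -1.49 ± 0.15 for N4bp2l1 (0.000251), -1.41 ± 0.15 for Chil1 (0.000465) and -1.33 ± 0.25 for Akr1c20 (0.0152). Scd1 (-1.84 ± 0.48, 0.0595) did not pass, nor did the genes nearest Cyp2a12. The genes of like pattern were picked from these same arrays, so their interactions largely follow from that choice and give no support.

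Among the list members named above, the interaction was -0.67 ± 0.12 for Cux2 (adjusted p = 0.0139), -0.91 ± 0.21 for Abcc3 (0.0328), -0.95 ± 0.21 for Cyp3a11 (0.0284), -1.07 ± 0.21 for Cyp2c29 (0.0153) and -0.81 ± 0.16 for Papss2 (0.0181). It was -1.20 ± 0.19 for Nqo1 (0.00623), -0.77 ± 0.15 for Gstm1 (0.0167), -1.36 ± 0.19 for Gsta3 (0.00215), -1.40 ± 0.25 for Rhbg (0.0105) and 1.23 ± 0.17 for Tbx3 (0.00209). List members not named above were left out here. The interaction was called positive in 10 and negative in 0 of 14 male-biased genes. It was positive in 0 and negative in 6 of 11 female-biased genes, and positive in 1 and negative in 3 of 12 NRF2 targets. Among all genes 1.43% were positive and 2.10% negative. Outlying livers within groups of 3 were not tested.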

How the results depend on the processing

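Cyp2a4, Cyp2a5 and Cyp2a22 kept their calls in KO against WT on HFD and in the interaction under every alternative run, with log2 fold changes of -3.29 to -3.11, -3.24 to -3.10 and -1.69 to -1.52 on HFD. Cyp2a4 and Cyp2a5 did so between diets in KO (-2.66 to -2.39 and -2.51 to -2.39). The replicate block changed no call of a member, and on chow it left 0 genes in place of 2. Cyp2a12 passed between genotypes on HFD with trend and robust settings (-0.19), median centring (-0.25) and genes above the median signal (-0.19), and between diets in WT with trend and robust settings (0.18). Cyp2a4 passed between diets in WT with trend and robust settings and with genes above the median signal (0.49 each), and leaving out 1 array gave 0.40 to 0.55. Cyp2a5 missed a 2-fold minimum there (0.52), and leaving out 1 array gave 0.43 to 0.61. The members called between diets in WT were thus 4 with trend and robust settings, 1 with the 2-fold minimum and 1 to 3 without 1 array. Cyp2a22 between genotypes on chow was 0.00 after quantile normalization and -0.13 to 0.12 without 1 array, above 0 without KO chow 1 or WT chow 2.

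Counts over all genes moved more. A 2-fold minimum left 295 of 2331 for KO against WT on HFD, 1 of 2 on chow, 28 of 54 between diets in KO, 206 of 1543 in WT and 275 of 783 for the interaction. Trend and robust settings gave 18 on chow, 124 between diets in KO and 1201 for the interaction, and genes above the median signal gave 19, 124 and 1394. Only the arrays compared gave 0 on chow and 21 between diets in KO, and every probe set gave 508 for the interaction. Without 1 array the counts were 1506 (without WT HFD 3) to 2326, 0 to 5, 28 to 79, 815 to 1691 and 432 to 718. The causes were not tested.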
